A study of Drosophila melanogaster with 2 samples.

Results

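CG32264 (FBgn0052264), the gene whose product was tagged and immunoprecipitated, held 6 of the 2546 peaks of the optimal set in its own introns. The peaks described here are all those of the dm6 build whose summit lay in CG32264 or within 10000 bp of it. They numbered 6 of 2546 in the optimal set, 75 of 30000 in the list built on both replicates (the joint list below), 80 of 30000 in the list of replicate 1 and 54 of 30000 in that of replicate 3. The gene spans 91634 bp of arm 3L on the minus strand (3714826 to 3806459, dm6) and has 9 transcripts from 8 starts in the Ensembl annotation BDGP6.

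ChIP-seq was done on whole Drosophila melanogaster in the wandering stage at the end of the third larval instar, with males and females pooled. All larvae were of the strain CG32264-GFP, which carries an insertion targeting CG32264 and stably expresses this protein with green fluorescent protein (GFP) at its C terminus. The fusion protein was precipitated with an antibody against GFP from sonicated chromatin. There were 2 biological replicates, numbered 1 and 3, of this 1 group. The labels name no cell type and no promoter for the fusion, and do not say whether the native gene carries the tag or a further copy does. All larval tissues were mixed in the chromatin, so a peak cannot be assigned to a tissue. A control library is not analysed here, and with 1 group there was no comparison of conditions and no test over samples.

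CG32264 encodes the fly member of the Phactr family, the phosphatase and actin regulators. In mammals, Phactr proteins bind monomeric actin through RPEL motifs and a catalytic subunit of protein phosphatase 1 through their C-terminal part, and a rise in monomeric actin displaces the phosphatase. They are known as regulators of the cytoskeleton rather than as DNA-binding proteins.

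The 6 peaks of the optimal set are called A to F here, in the order in which RNA polymerase would meet them from the first start of the gene. The optimal set is the list kept by the irreproducible discovery rate (IDR) step, which compares peak ranks between replicates. The summit base and the 100 bases on either side of it are printed for each peak because these are the stretches of CG32264 with the highest signal. All are 5′ to 3′ on the plus strand of the RefSeq sequence of Release 6, opposite to the strand on which CG32264 is annotated. They are chr3L:3802845-3803045 for A, chr3L:3785833-3786033 for B, chr3L:3785125-3785325 for C, chr3L:3772810-3773010 for D, chr3L:3771254-3771454 for E and chr3L:3765739-3765939 for F. Capitals mark matches, on either strand, of 18 searched motifs and of CACAGTG, a run of letters picked out only after the sequence of C had been read.
peak A: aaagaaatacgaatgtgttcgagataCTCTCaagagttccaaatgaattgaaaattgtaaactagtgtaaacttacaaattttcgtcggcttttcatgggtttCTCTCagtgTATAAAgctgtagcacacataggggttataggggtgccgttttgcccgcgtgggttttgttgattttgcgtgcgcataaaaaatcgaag
peak B: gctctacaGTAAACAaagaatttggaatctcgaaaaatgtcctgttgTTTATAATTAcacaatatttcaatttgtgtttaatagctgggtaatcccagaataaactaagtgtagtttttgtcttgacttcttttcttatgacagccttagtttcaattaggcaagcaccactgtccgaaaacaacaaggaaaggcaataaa
peak C: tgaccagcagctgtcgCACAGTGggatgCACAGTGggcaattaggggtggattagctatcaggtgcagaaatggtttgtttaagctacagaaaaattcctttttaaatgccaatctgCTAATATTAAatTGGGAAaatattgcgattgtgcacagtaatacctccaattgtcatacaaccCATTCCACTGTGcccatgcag
peak D: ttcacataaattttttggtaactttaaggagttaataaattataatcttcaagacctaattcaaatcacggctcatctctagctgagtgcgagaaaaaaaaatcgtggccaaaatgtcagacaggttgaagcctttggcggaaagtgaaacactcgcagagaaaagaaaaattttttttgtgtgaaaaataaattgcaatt
peak E: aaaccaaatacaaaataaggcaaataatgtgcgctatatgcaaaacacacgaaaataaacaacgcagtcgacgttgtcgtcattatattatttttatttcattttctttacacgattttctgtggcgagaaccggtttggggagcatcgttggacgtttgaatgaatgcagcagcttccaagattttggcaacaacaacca
peak F: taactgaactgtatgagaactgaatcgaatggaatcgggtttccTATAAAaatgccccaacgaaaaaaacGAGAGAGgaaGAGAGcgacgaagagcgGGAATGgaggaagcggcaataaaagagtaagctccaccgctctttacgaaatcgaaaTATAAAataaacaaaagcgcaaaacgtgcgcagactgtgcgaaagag

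A further pair of peaks lay at annotated starts of CG32264 but below the optimal set. They are printed in the same way because they are the start peaks outside that set with the best ranks in both replicates. Peak G (chr3L:3787684-3787884) lies in the first exon of the transcripts RD and RE, and peak H (chr3L:3806354-3806554) covers the start of RK.
peak G: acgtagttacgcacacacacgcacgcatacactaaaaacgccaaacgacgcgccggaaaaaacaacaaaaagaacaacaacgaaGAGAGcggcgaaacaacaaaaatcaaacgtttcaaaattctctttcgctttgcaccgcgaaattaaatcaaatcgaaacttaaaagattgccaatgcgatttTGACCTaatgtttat
peak H: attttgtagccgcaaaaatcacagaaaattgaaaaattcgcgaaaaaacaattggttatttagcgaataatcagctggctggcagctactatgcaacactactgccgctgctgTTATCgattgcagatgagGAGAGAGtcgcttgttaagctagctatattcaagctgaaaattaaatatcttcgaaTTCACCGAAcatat

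The signal of a peak is the value deposited by the authors, on a scale of its own in each list, and ranks are by this signal within a list, with 1 the highest. Peak C stood apart from all other peaks of the gene. It lay at 3L, 3785091 to 3785363, had a signal of 568 and rank 20 in the optimal set, a signal of 344 and rank 22 in replicate 1, and a signal of 227 and rank 19 in replicate 3. Its position in the order was thus nearly the same in all 3 lists. C was also the narrowest of the 6, with 273 bp against 376 bp for each of the others. A width of 376 bp is the largest in the optimal set and was that of 82.6% of its peaks. It may therefore be a fixed limit rather than a measured extent. The summits of C in the replicates lay 10 bp and 48 bp from the summit of the joint list.

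The other 5 peaks of the optimal set had signals of 69.2 to 85.2 and ranks of 1402 to 2074, so they were in the weaker part of a set whose median signal was 90.2. Peak A (3802757 to 3803132) had a signal of 85.2 and rank 1402, with rank 1186 (signal 56.5) in replicate 1 and rank 2471 (signal 29.7) in replicate 3. Peak B (3785745 to 3786120) had a signal of 80.1 and rank 1580, with rank 1091 (59.0) in replicate 1 and rank 4229 (22.6) in replicate 3. Both A and B therefore ranked higher in replicate 1 than in replicate 3.

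Peak D (3772722 to 3773097) had a signal of 69.2 and rank 2074, with rank 2383 (38.2) in replicate 1 and rank 3533 (24.9) in replicate 3. Peak E (3771166 to 3771541) had a signal of 71.5 and rank 1957, with rank 1933 (43.2) and rank 1736 (35.1). In replicate 3, E overlapped 2 peaks, of which the higher is given: its summit was at 3771555, right of the end of E, while the other, at 3771323 within E, had rank 2354 (30.3). Peak F (3765651 to 3766026) had a signal of 79.9 and rank 1587, with rank 1858 (44.0) and rank 1102 (43.3). F ranked higher in replicate 3 than in replicate 1, as C did, while D, like A and B, ranked lower there. For E the order of the replicates depended on which of its overlapping peaks in replicate 3 was taken. All 6 peaks had the same −log10 q of 3.63 in the authors' optimal set, so this value did not separate C from the others.

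**Figure D1:**
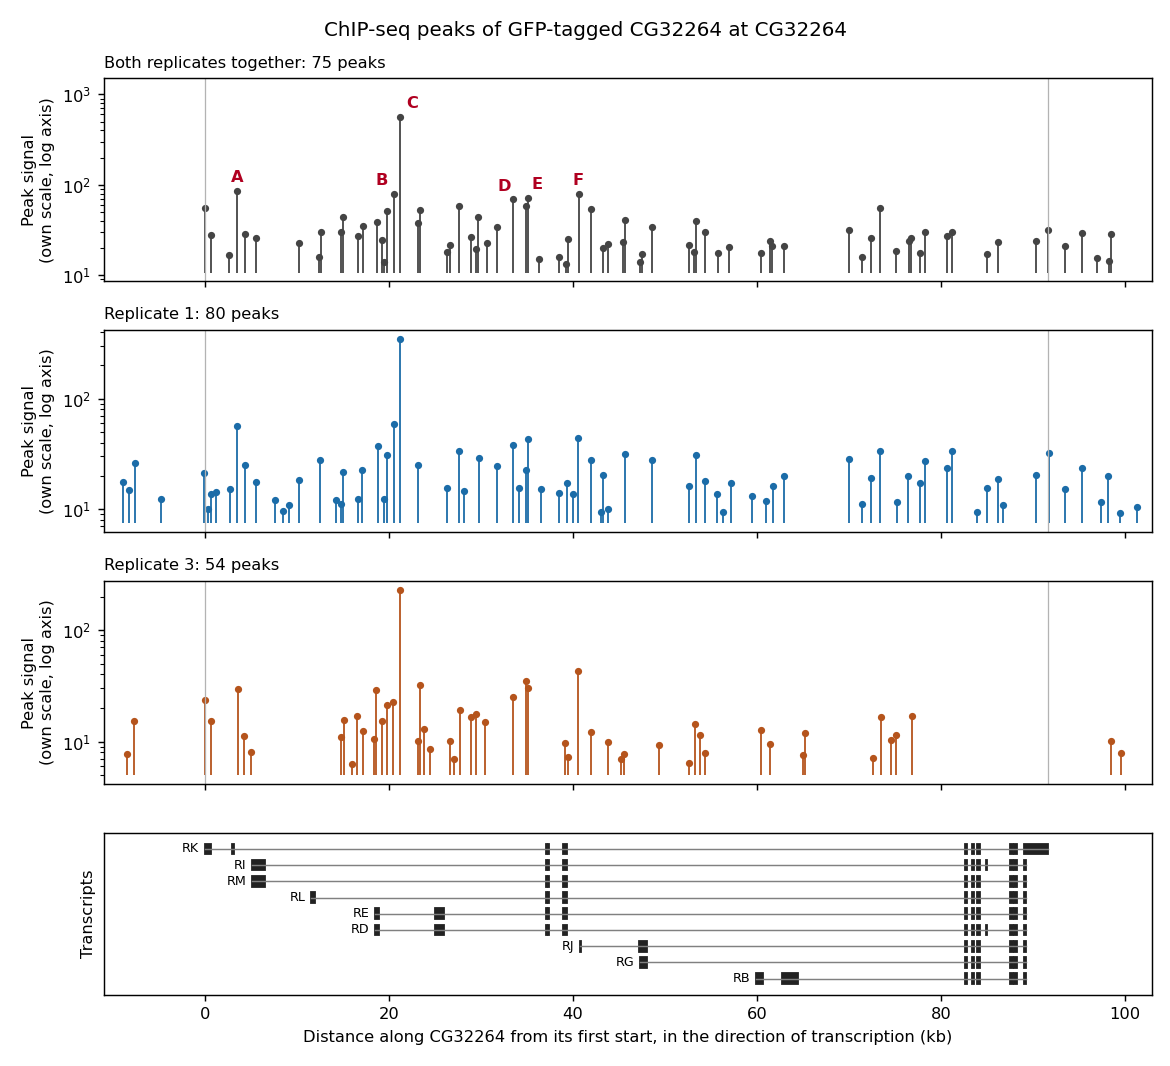
Peaks in CG32264 and its flanks in the joint list (both replicates together), in replicate 1 and in replicate 3, by distance from the first start along the direction of transcription (kb) and by signal on the scale of each list (log axis), above the 9 transcripts with exons as boxes. Vertical grey lines mark the first start and the end of the gene, letters mark the 6 peaks of the optimal set, and peak C is the highest point in every list (568, 344 and 227).

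All 6 summits of the optimal set lay in introns of CG32264 and outside exons of any gene. Of the whole optimal set, 52.6% of the summits lay in an intron and in no exon. The 6 were chosen by their place in or near this gene, much of which is intron. RK, the transcript that spans all 91634 bp of it, has 5535 bp of exons, and other transcripts have further exons within the introns of RK. The share of the gene that is intron was not computed. Taking the shortest intron around each summit, the 6 fell in 4 introns. Peaks B and C were 708 bp apart in intron 1 of RD (3781413 to 3787556, 6144 bp), 2027 bp and 2735 bp downstream of the start of RD at 3787960. This intron follows the untranslated first exon of RD and RE, the transcripts with the longest predicted proteins of the gene (1008 and 998 residues). Peaks D and E were 1556 bp apart in the next intron of RD (3769407 to 3780422, 11016 bp).

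Peak A lay in an intron of RK alone (3769407 to 3803313, 33907 bp), 1657 bp upstream of the start shared by RI and RM. Each of the other 5 summits was inside introns of 6 of the 9 transcripts. Peak F lay in an intron of 43264 bp (3723873 to 3767136) of the long transcripts, 108 bp upstream of the start of RJ at 3765731. RJ encodes a predicted protein of 509 residues, shorter than the 759 to 1008 residues of the transcripts that start farther upstream. Of those that start farther downstream, RG encodes 464 residues and RB 790 residues. Peak F was the only 1 of the 6 within 500 bp of a start, while 47.5% of the summits of the whole optimal set lay within 500 bp of a start of any gene. For A the nearest start was 1657 bp away, and for B, C, D and E it was 2027 bp, 2735 bp, 7179 bp and 5623 bp away.

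The stretch between the starts of RE and RJ held most of the peaks of the optimal set, but not of the longer lists. Along its 22235 bp lay 5 of the 6 summits of the optimal set, 24 of the 69 summits inside the gene in the joint list, 20 of 68 in replicate 1 and 21 of 50 in replicate 3. From the first to the last start (59875 bp) there were 8.52 summits per 10 kb in the joint list, 8.35 in replicate 1 and 6.85 in replicate 3. From the last start to the end of the gene (31759 bp), which holds the exons shared by all 9 transcripts, the densities were 5.67, 5.67 and 2.83. No summit of the optimal set lay in that end of the gene. The stretch of 6338 bp after the start of RI and RM had 5 summits in replicate 1 and 0 in replicate 3.

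The 8 starts of CG32264 differed in what lay at them. Within 500 bp of a start, a summit was present in the joint list and in each replicate at the starts of RK, RI with RM, RE, RD and RJ. RE and RD start 6 bp apart and share their peaks. The start of RL had no summit within 500 bp in any list. The start of RG had 2 in the joint list, at ranks 19931 and 27913, and 0 in either replicate. At the start of RB, replicate 1 alone had a summit within 500 bp, at rank 15935.

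Peak F, at RJ, was the highest of these start peaks in each list. Peak G lay 176 bp downstream of the start of RD and had rank 5606 (signal 38.4) in the joint list. In the replicates it ranked higher, at 2492 (37.2) in replicate 1 and 2656 (28.7) in replicate 3, with summits 105 bp to the left and 104 bp to the right of its summit in the joint list. Peak H lay 5 bp from the start of RK and had rank 3001 (55.9), with rank 6573 (21.3) in replicate 1 and rank 3824 (23.8) in replicate 3. This start is shared with ntc, which encodes the F-box protein Nutcracker of sperm individualisation, and the start of IntS10, a subunit gene of the Integrator complex, is 251 bp from it. Peak H cannot be assigned to 1 of these 3 genes. At RI and RM the summits were not all at 1 place. Those of the joint list (rank 10697) and replicate 1 (rank 9246) lay 343 bp and 345 bp downstream of the start. The summit of replicate 3 (rank 21297) lay 97 bp upstream of it, in a peak that overlapped neither of them.

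The replicates were compared through peaks that share at least 1 bp. Peaks A, C, E and F, 4 of the 6 in the optimal set, each overlapped peaks among the top 2546 of both replicates (66.7%, exact 95% interval 22.3 to 95.7%), near the 61.6% of the whole optimal set. All 6 overlapped a top peak of replicate 1 (85.6% of the whole set), and 4 a top peak of replicate 3 (73.4% of the whole set). B and D were those without, at ranks 4229 and 3533 of replicate 3. With 6 peaks the interval is wide, and the exact Clopper-Pearson intervals here cover counting error only.

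Over the longer joint list, which also holds background regions, 44 of the 75 peaks of CG32264 overlapped a peak of both replicate lists (58.7%, interval 46.7 to 69.9%), with 51.5% in the whole list. The share with a partner in replicate 1 was 92.0% (interval 83.4 to 97.0%), with 77.0% in the whole list. The share with a partner in replicate 3 was 62.7% (interval 50.7 to 73.6%), with 69.1% in the whole list. These intervals treat the 75 as separate regions and are not a test against the whole list. Peaks were also denser in the gene than over the 6 arms, at 7.42 against 2.24 per 10 kb in replicate 1. In replicate 3 they were at 5.46 against 2.24 per 10 kb. The part of this density in the overlaps was not tested. Of the 75, 25 had a partner in replicate 1 alone (33.3%, with 25.6% of the whole list), 3 in replicate 3 alone (4.00%, with 17.7%) and 3 in neither (4.00%, with 5.29%). Neighbouring peaks overlapped each other in 15 cases, so these counts are not of independent regions.

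From the side of the replicates, 37 of the 80 peaks of replicate 1 at CG32264 overlapped a peak of replicate 3 (46.3%, where 15005 of all 30000 did), and 39 of the 54 peaks of replicate 3 overlapped a peak of replicate 1 (72.2%, where 15714 of all 30000 did). Replicate 1 had 26 more peaks here than replicate 3, although both lists were of equal length. Across the 44 peaks found in both, Spearman's rho of the ranks in the replicates was 0.627 (Bonett-Wright 95% interval 0.382 to 0.790), and 0.601 without peak C (n = 43). Some of the 44 share a replicate peak, while the interval counts them as independent, so it does not give the uncertainty of rho. Over the 32 distinct pairs of replicate peaks rho was 0.670. These are correlations across regions of the same libraries, given as a description.

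**Figure D2:**
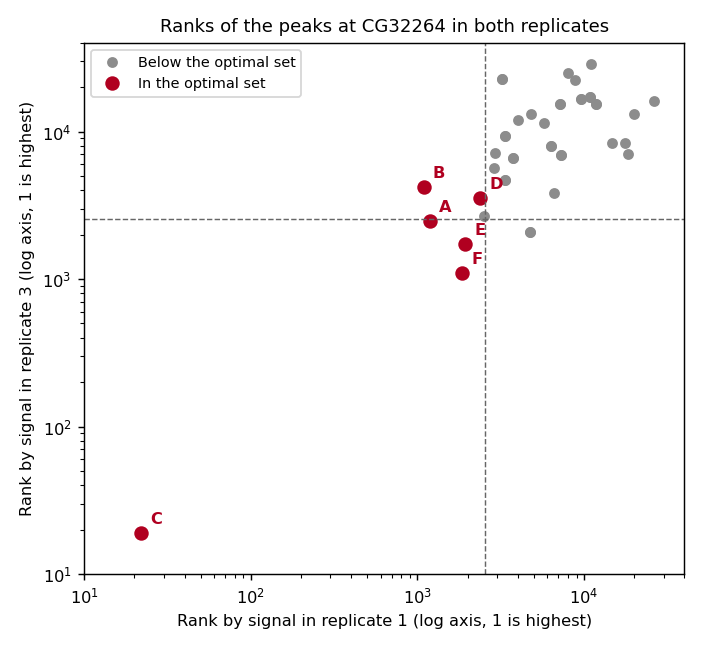
Rank by signal in replicate 1 against rank in replicate 3 (log axes, 1 is the highest), with dashed lines at rank 2546. Each point is a pair of replicate peaks that overlap the same peak of the joint list at CG32264, and need not overlap each other. Peak C lies alone near rank 20 in both, A, E and F rank better than 2546 in both, and B and D do so in replicate 1 alone.

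Just outside the optimal set the gene held several peaks of nearly the same height as its weaker members. D, the last member inside the set, had a signal of 69.2, and the set ended at a signal of 61.1. The next peaks of the gene in the joint list had summits at 3778792 (rank 2725, signal 59.0), 3771562 (rank 2754, signal 58.7) and 3733019 (rank 2988, signal 56.1). The first of these had ranks 2876 and 5647 in replicates 1 and 3 and the last had ranks 2933 and 7175. The summit at 3771562 was 208 bp from that of E and shared its replicate peaks. Peak H came next, and then summits at 3764524 (rank 3125, 54.4) and 3783072 (rank 3291, 52.9). The latter ranked 2091 in replicate 3 and 4764 in replicate 1. Among the top 2546 of each list, which are 8.49% of that list, CG32264 had 6 peaks of the joint list (8% of its 75). It had 7 of replicate 1 (8.75% of its 80) and 6 of replicate 3 (11.1% of its 54).

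The 7 of replicate 1 were A to F and peak G. The 6 of replicate 3 were A, C, E and F, a second summit at 3771323 in E, and the summit at 3783072. Over all members the median signal was 25.7 in the joint list, 17.7 in replicate 1 and 12.0 in replicate 3, with medians of 20.8, 13.6 and 10.4 over the whole lists. In the joint list, 59 of the 75 summits were in introns of CG32264, 8 in untranslated regions, 2 in coding exons and 6 in the downstream flank. Counted as in an intron and in no exon of any gene, they were 58 (77.3%), with 51.3% of the whole joint list. As these peaks were chosen by their place in or near a gene with long introns, this is not read as a preference for introns.

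Besides its strongest peaks, CG32264 held many weaker entries of the lists, most of them at a q above 0.05. It held 69 summits of the joint list, or 7.53 per 10 kb, against 2.41 on arm 3L and 2.24 over the 6 arms. In replicate 1 it held 68 (7.42 per 10 kb, against 2.44 on 3L) and in replicate 3 it held 50 (5.46 per 10 kb, against 2.30 on 3L). The optimal set had 0.655 per 10 kb in the gene and 0.197 on 3L, so the density was above that of the arm in all 4 lists. With the stronger 50% of the optimal set, which leaves peak C alone in the gene, it was 0.109 against 0.0951 over the 6 arms. With overlapping peaks merged, a count added after seeing the data, the density of the joint list was 6.00 per 10 kb against 1.99 over the arms.

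The authors' q was at most 0.05 for 17 of the 75 peaks of the joint list (22.7%, with 18.5% of the whole list), for 14 of 80 in replicate 1 (17.5%, with 11.5%) and for 21 of 54 in replicate 3 (38.9%, with 28.5%). The median −log10 q of the 75 was 0.592 and the lowest 0.0865. With these 17 peaks alone, all inside CG32264 and also counted after seeing the data, the density was 1.86 per 10 kb against 0.414 over the arms. The labels do not say whether a further copy of CG32264 was present in the larvae, and its part in these densities and in the place of the gene among long genes was not tested.

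The flanks had counts that varied from list to list. The 10 kb upstream of the first start held 0 summits of the joint list, 5 of replicate 1 and 2 of replicate 3. The 10 kb downstream of the end held 6, 7 and 2. Over 100 kb the densities were 2.90, 3.20 and 3.00 per 10 kb upstream, and 3.40, 3.50 and 2.90 downstream, closer to those of the arm than to those of the gene. The nearest summits of the optimal set outside CG32264 were 61757 bp upstream (rank 1059, signal 100) and 97431 bp downstream (rank 733, signal 121). In the joint list, the limit of 10000 bp fell between summits 6850 bp and 11483 bp downstream, and the nearest summit upstream was 10661 bp away.

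**Figure D3:**
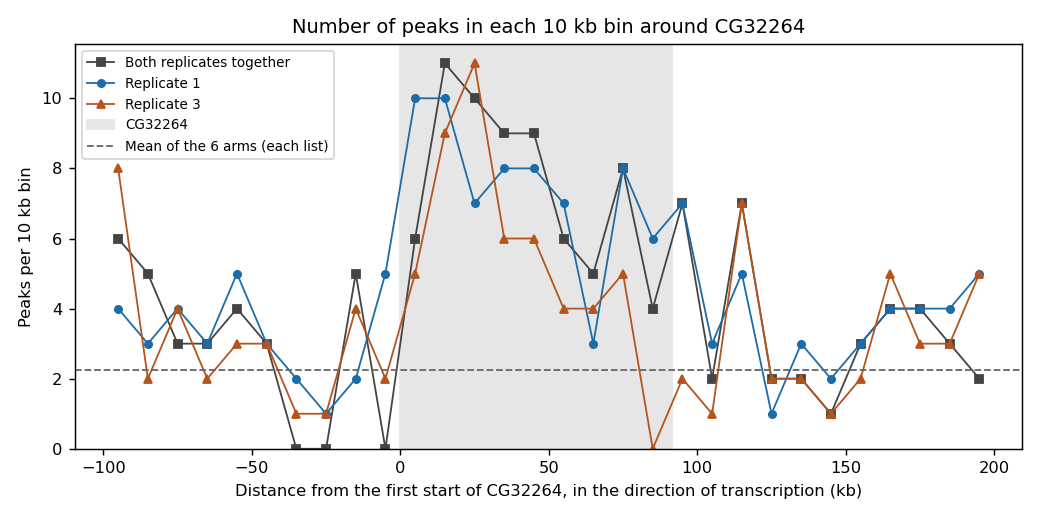
Number of peaks in each bin of 10 kb, by distance from the first start of CG32264 along the direction of transcription (kb), in the joint list and in each replicate, with the gene shaded and a dashed line at the mean of the 6 arms (2.24). Counts in the gene reach 11 in the joint list and in replicate 3 and 10 in replicate 1, and the bin just upstream of the first start holds 0, 5 and 2.

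Among the 307 protein-coding genes of at least 50 kb, CG32264 was second in density in the joint list, after sbb, the scribbler gene (8.98 per 10 kb). It was second also in replicate 1 (7.42, after 8.22 for sbb) and number 22 in replicate 3 (5.46, where sbb had 10.2). The median of these genes was 1.68 per 10 kb in the joint list, 1.84 in replicate 1 and 1.54 in replicate 3. The place of CG32264 thus differed between the replicates, and no test over samples could be made. Next to it in the joint list came Eip75B (7.47), an ecdysone-induced nuclear receptor gene, rdx (7.38), Samuel (7.25) and bun (6.81). These 4 genes and sbb were named for their density after it was seen.

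In the optimal set CG32264 was number 20 of the 307 genes, with 0.655 summits per 10 kb, and 183 of these genes had no summit of that set. Genes of nearly the same density were Svil, which encodes the actin-binding protein supervillin (8 summits, 0.658 per 10 kb), Tet, a dioxygenase gene (6, 0.645), CG46458 (4, 0.644), psq, the gene of the GAGA-binding factor pipsqueak (4, 0.673), and fz2, a Wnt receptor gene (6, 0.636). Higher densities were found in sbb (12 summits, 1.52 per 10 kb), heca, the headcase gene (8, 0.847), and the shorter for, a cGMP-dependent kinase gene of 34880 bp (3, 0.860).

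**Figure D4:**
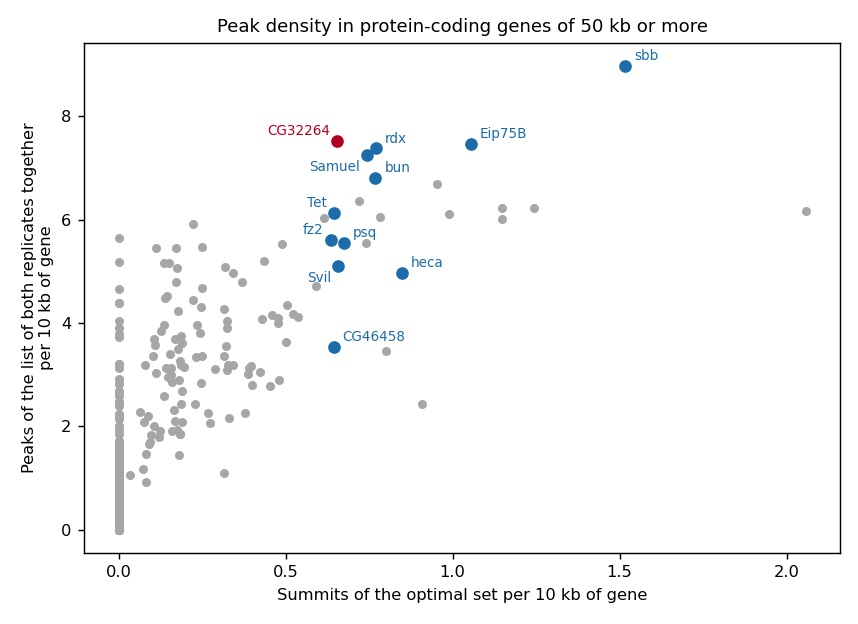
Summits of the optimal set per 10 kb (horizontal axis) and peaks of the joint list per 10 kb (vertical axis) for the 307 protein-coding genes of at least 50 kb (1 point per gene). CG32264 (red, 0.655 and 7.53) lies below only sbb on the vertical axis, and blue points are the other genes named in the text.

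The genes inside and next to CG32264 had no summit of the optimal set. Nested in its introns, ppk27, a gene of the pickpocket family of sodium channels, had a best rank of 14019 in the joint list, and CG32266 one of 4406. The latter peak had ranks of 6366 and 7937 in replicates 1 and 3. Upstream lay Scsalpha1, which encodes a subunit of succinyl-CoA synthetase. Its best ranks were 16258 in the joint list, 4395 in replicate 1 and 7797 in replicate 3, but in different places. The replicate 1 summit (3814096) lay within 500 bp of its start, as did a replicate 3 summit of rank 8395 (3814101). These overlapped each other but no peak of the joint list. The summits of rank 16258 (3817120) and rank 7797 (3817330) lay inside Scsalpha1, beyond the limit of 10000 bp from CG32264. Within 500 bp of the starts of PIG-B and CG32263, replicate 1 alone had a peak, at rank 17668. CG32262, Acp63F and CG43089 had none in any list. Of the non-coding RNA genes, lncRNA:CR45675 had a peak at its start of rank 26097 in the joint list and 7192 in replicate 1. For lncRNA:CR43932 the best ranks were 9164 in replicate 1 and 22694 in replicate 3, in peaks that do not overlap. The latter overlapped a replicate 1 peak of rank 12465. The peak of rank 9164 was also the only one of lncRNA:CR45034, which had none in the other lists.

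Genes of actin, of protein phosphatase 1 and of actin-regulated transcription were looked at as well, with summits in the gene or within 500 bp of a start. Of 12 such genes, 1 held a summit of the optimal set (8.33%), as did 14.0% of the 13945 protein-coding genes by the same rule. This was bs, the fly serum response factor gene (rank 481, signal 149, with ranks 395 and 743 in replicates 1 and 3). Mrtf, whose product binds monomeric actin through RPEL motifs too, had a best rank of 3825, with 3207 and 5160 in the replicates. Of the protein phosphatase 1 catalytic genes, flw had a best rank of 4090, Pp1alpha-96A 6662 and Pp1-13C 22164, and Pp1-87B had a peak in replicate 3 alone (rank 22758). Among the actin genes, Act5C had a best rank of 3919 in the joint list, 8642 in replicate 1 and 1607 in replicate 3. Act42A followed at 8562 and Act87E at 15981, while Act57B, Act79B and Act88F had no peak in any list. None of these genes had a peak near the rank of C.

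The windows of A to F were searched for 18 motifs on both strands. These were GAGAG (bound by Trl), TATCGATA (Dref), GATAA (bound by GATA factors), the Mef2 site, TAATTA (homeodomain proteins), GCCAT (Pho), the CArG box (serum response factor), TGANTCA (AP-1), CACGTG (Myc and Max), AGGTCA (nuclear receptors), CAGGTA (Zelda), GGTCACA (M1BP), TATAAA (bound by the TATA-binding protein), TGGGAA (Suppressor of Hairless), GGAATG (Scalloped), TTCNNNGAA (STAT), GAANNTTC (heat shock factor) and TGTTTAC (forkhead proteins). Of these, 7 were in at least 1 of the 6 windows. TATAAA was in A, B and F (32.0% of all 2546 windows of the optimal set), and GAGAG in A and F (27.6%). F, at the start of RJ, thus held 2 matches of TATAAA and 3 of GAGAG, a pair of which overlap.

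GGAATG was in C and F (6.52% of all windows), and C also held 1 match of the Mef2 site (10.9%) and 1 of TGGGAA (9.74%). B held TAATTA (14.6%), which overlaps its TATAAA, and TGTTTAC (6.36%). D and E held no match of any of the 18. GATAA, the motif in the largest share of all windows (40.3%), was in none of the 6, and neither were GCCAT (24.8%) and the CArG box (0.864%). The start peaks below the optimal set differed from these: G held GAGAG and AGGTCA (3.65% of all windows), and H held GATAA, 2 overlapping matches of GAGAG, and TTCNNNGAA (5.30%). A match is a run of letters and was not tested as a binding site. The GC content of the 6 windows was 38.1% ± 4.39 (SD over 6 windows), against 36.9% ± 6.46 (SD over 2546 windows).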

How the data were processed

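The deposited dm6 peak lists were used: 1 per replicate, 1 built on both (the joint list), and the optimal set. Per the deposited notes, the lists were made as peaks and background for IDR from the alignments of the replicates. No aligner, peak caller or threshold is given in the sources used here. The authors' signal (its scale is not stated) and −log10 q of each peak were used as deposited, to describe and rank peaks within a list. Values of the optimal set and the joint list have no SD or n. The signal of the optimal set is that of the joint list. The depth of the libraries is unknown from peak lists, so the protein may also be present where no peak is listed. Each list before IDR had 30000 entries, so a limit on list length is possible. The dm3 lists were not used.

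Summits were placed on Ensembl BDGP6 (release 115) and on the RefSeq sequence of Release 6. Tied signals share the best rank. Partners share at least 1 bp. Named genes were those overlapping CG32264 or its flanks, the 5 genes of at least 50000 bp nearest in density, sbb, heca and for, and 12 genes of actin, protein phosphatase 1 and actin-regulated transcription. The members, motifs and gene lists were chosen with earlier results of these data known. Counting was checked on simulated data. Python 3.11.15, pandas 2.3.3, numpy 2.4.6, scipy 1.17.1 and matplotlib 3.10.9 were used.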

Additional observations from a re-analysis of the deposited data

How the results depend on the processing

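Of 38 alternatives, 30 were labelled as leaving the results at CG32264 the same and 8 as moving them. The 30 include changes that are not small. Peaks found in both replicates went from 4 to 6, and the joint density of 7.53 per 10 kb became 5.46 without replicate 1. The tally is therefore not a measure of stability. With the stronger 50% of the optimal set, 1 summit was left near the gene, inside it and in an intron, 0 within 500 bp of a start, and 0.109 summits per 10 kb (0.0951 over the arms). That summit is peak C, and 5 of the 6 peaks were below this limit by construction. With the top 2546 peaks of 1 replicate in place of the optimal set, 6 (without replicate 1) to 7 (without replicate 3) summits lay inside the gene, and 1 to 2 within 500 bp of a start, the added one being peak G. Windows of 150 bases on either side of the summit gave 1 of the 6 peaks a GATAA match (0 with 100 bases), with 51.7% of all windows holding one. The count of 4 peaks found in both replicates was 4 with an overlap of 50% and with summits within 100 bp, and 6 with the top 5000 or the whole lists. The density of the joint list ranged from 1.86 to 7.42 per 10 kb over its alternatives (7.53 as reported). Of these, 3 were added after seeing the data: peaks of a q of at most 0.05 (1.86), overlapping peaks merged (6.00) and the optimal set left out (6.88). No paired analysis was possible because there was 1 group. The libraries' depth is not known from these lists, and 2 replicates limit every statement on their likeness.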

Other observations

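The window of peak C held 3 matches of CACAGTG, 1 of which shares a base with a match of GGAATG, and the other 5 windows of CG32264 held 0. These letters were picked out after the sequence of C had been read, so the count in C is a description. Over the whole optimal set 221 of 2546 windows held the letters on either strand (8.68%), against 79 of the windows of the same length 1100 bp to the left (3.10%). The share was 12.7% of the strongest 636 windows and 6.91% of the weaker 50% by signal. Windows with at least 3 matches numbered 2, those of C (rank 20) and of the peak of rank 1162, and none was found to the left. No factor is named for these letters.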
